A study of Mus musculus with 4 samples.

Results

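Potassium channel genes were the 90 of 23420 listed genes whose symbol has the form Kcn, a family letter or letters and a number, and whose normalized read score was above 1 in at least 3 of 12 replicates. A score of 1 marks a gene without reads. The symbol pattern matched 92 genes. Kcnk15, above 1 in 2 replicates, and Kcnk16, above 1 in 0, fell outside, and Kcnj1, above 1 in 5 replicates, was the member closest to the limit. Of the 90 members, 75 were above 1 in all 12 replicates.

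Hair cells and non-hair cells were sorted from cochlear explants of postnatal day 1 mice on a CD1 background that carry an Atoh1-GFP transgene. In these animals GFP is driven by Atoh1 regulatory sequence and marks hair cells, the sensory receptors of the cochlea. All explants of all 4 groups carried the transgene and were cultured overnight, then kept for 3 h with 0.5 mM gentamicin, an aminoglycoside antibiotic that damages hair cells, or left without drug. GFP-positive cells make up the hair cell groups and GFP-negative cells the non-hair cell groups, with cells of low GFP gated out and at least 50000 cells collected for a sample. Non-hair cells are a mixture, in which supporting cells, epithelial ridge cells and cells of the surrounding tissue are not separated. Each of the 4 groups has 3 replicates, which the study calls biological, and 22400402 to 28151943 reads fell on genes in a replicate.

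Potassium channels let potassium leave or enter the cell and so set the resting potential and shape the receptor potential. Pore subunits fall into voltage-gated channels, channels opened by calcium or sodium, inward rectifiers, which pass inward current more readily than outward, and two-pore-domain channels, which carry leak current. Silent voltage-gated subunits make no channel alone and change the behaviour of others, and auxiliary subunits do the same without forming a pore. In the cochlea hair cells sit with their tops in potassium-rich endolymph, so potassium carries the transduction current in and basal potassium channels carry it out, while supporting cells and the stria vascularis return it to the endolymph.

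The members comprised 30 voltage-gated pore subunits, 10 silent subunits, 8 calcium- or sodium-activated pore subunits, 15 inward rectifiers, 12 two-pore-domain channels and 15 auxiliary subunits. At least 100 reads over the 12 replicates, the minimum for a test, were reached by 78 members, namely 30, 6, 8, 12, 9 and 13 of these families in that order. The 12 members below it were Kcng3, Kcng4, Kcnv1 and Kcnv2 among the silent subunits, Kcnj1, Kcnj3 and Kcnj6 among the inward rectifiers, Kcnk7, Kcnk13 and Kcnk18 among the two-pore-domain channels, and the BK channel subunits Kcnmb1 and Kcnmb3. In none of the 12 did a replicate exceed a score of 1.79. Tested members were measured at low levels, with a median score of 6.76 against 29.2 over all 16077 genes tested, and with a median standard error of a log2 difference of 0.22 against 0.13.

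Several members lie next to each other in the genome. In GENCODE M21 on GRCm38, 9 pairs of neighbouring members, with 16 genes among them, were within 200 kb of each other. On chromosome 3 the voltage-gated genes Kcna3, Kcna2 and Kcna10 follow one another on the same strand, with 63.1 kb and 68.1 kb between them. Kcna10 spans chr3:107183056-107195721 and Kcna2 chr3:107101146-107115005. Kcnip1 and Kcnmb1 overlap on opposite strands of chromosome 11, so reads of the pair may not be told apart, since strand was not given for the counting.

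RefSeq holds a promoter window on GRCm38.p6 for 65 of the 90 members. The 250 bases before the RefSeq start of transcription are shown for 4 of them because their genes carry the contrasts that follow. RefSeq and GENCODE starts can differ. The Kcna2 window lies inside the GENCODE span of Kcna2, and the Kcna10 window runs past the GENCODE start of Kcna10. Kcna10 and Kcna2 are the chromosome 3 neighbours with opposite patterns in hair cells, Kcnj13 was among the members with the largest excess in hair cells, and Kcna4 rose with gentamicin. Each runs 5′ to 3′ on the strand of its gene, and capitals mark an E-box, the motif class that Atoh1 and other basic helix-loop-helix factors bind.
Kcna10 (chr3:107182893-107183142, plus strand): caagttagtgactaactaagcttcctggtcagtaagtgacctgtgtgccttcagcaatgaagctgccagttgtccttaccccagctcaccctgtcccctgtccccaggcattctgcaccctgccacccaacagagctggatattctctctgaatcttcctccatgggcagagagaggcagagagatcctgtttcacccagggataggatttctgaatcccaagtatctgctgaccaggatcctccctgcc
Kcna2 (chr3:107101317-107101566, plus strand): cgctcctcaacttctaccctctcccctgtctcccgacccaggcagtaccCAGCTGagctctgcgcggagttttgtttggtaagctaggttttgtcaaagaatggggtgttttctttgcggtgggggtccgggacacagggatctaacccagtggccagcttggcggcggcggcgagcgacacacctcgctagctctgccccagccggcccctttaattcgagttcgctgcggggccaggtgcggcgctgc
Kcnj13 (chr1:87394730-87394979, minus strand): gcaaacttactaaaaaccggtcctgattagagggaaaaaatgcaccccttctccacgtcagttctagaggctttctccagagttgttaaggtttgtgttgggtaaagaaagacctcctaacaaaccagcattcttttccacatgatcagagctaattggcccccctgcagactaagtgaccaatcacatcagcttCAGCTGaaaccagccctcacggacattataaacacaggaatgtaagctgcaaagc
Kcna4 (chr2:107290339-107290588, plus strand): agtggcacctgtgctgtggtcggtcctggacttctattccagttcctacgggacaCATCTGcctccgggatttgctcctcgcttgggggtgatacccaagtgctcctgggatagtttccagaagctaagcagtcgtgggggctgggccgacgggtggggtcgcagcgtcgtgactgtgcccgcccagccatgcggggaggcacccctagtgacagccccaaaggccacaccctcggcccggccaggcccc
The searched letters were CAGCTG and CAGATG for E-boxes and TGANTCA for the AP-1 site, on both strands of the 250 bases before the start. The 50 bases of a window after the start were not searched, and the motifs do not overlap in letters. CAGCTG stood in 23.1% of member windows and in 12.7% of all 27025 windows, CAGATG in 12.3% and 14.5%, and TGANTCA in 4.62% and 6.85%. Counted from the start, with negative positions before it, the CAGCTG of Kcna2 lay at -201 to -196 and that of Kcnj13 at -55 to -50. In Kcna4 the capitals are CAGATG read on the other strand, at -195 to -190. The Kcna10 window held none of the 3 motifs, nor did those of Kcnh6 and Kcnmb2, which were also higher in untreated hair cells. CAGCTG stood in 2 of 12 windows of members higher in untreated hair cells, or 16.7%. Among members lower there it stood in 8 of 29, or 27.6%. For CAGATG these shares were 8.33% and 13.8%. Binding of Atoh1 was not tested.

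The labels of both populations were checked against their markers first. All 10 hair cell markers, such as Myo7a and Pou4f3, were higher in hair cells, with summed scores above 1 of 10180 to 12300 in hair cells and 211 to 300 in non-hair cells. Markers of other cells were not absent from hair cells. The 6 mesenchyme markers summed to 178, 445 and 187 in untreated hair cells, replicates 1 to 3, and to 4732 to 6494 in untreated non-hair cells. Hair cell control replicate 2 also had the highest sums of the pericyte, endothelial, glia and neuron lists among hair cell replicates.

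To see which channel genes each cell type expressed, levels were first compared per length, as the score above 1 divided by the length in kb of the longest transcript, given as mean ± SD of 3 replicates. Untreated hair cells expressed Kcnh6, a channel of the Erg type, at the highest level, followed by the voltage-gated Kcna10, the BK channel subunit Kcnmb2, Kcnh2, which is the Erg channel of cardiac repolarization, and the inward rectifier Kcnj13. Their levels were 123 ± 3.28 for Kcnh6, 72.3 ± 4.08 for Kcna10, 46.8 ± 4.85 for Kcnmb2, 46.2 ± 1.71 for Kcnh2 and 45.8 ± 0.296 for Kcnj13 per kb. Kcnh6 stood apart from Kcna10 in every replicate and Kcna10 from Kcnmb2, while Kcnmb2, Kcnh2 and Kcnj13 overlapped with their neighbours in the order. After a gap came the leak channel Kcnk1, and the silent subunit Kcns3 and the calcium-binding subunit Kcnip3 were also among the leading 10. The leading 10 members held 76.6% of the summed level per kb of all members.

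Untreated non-hair cells had a flatter order. The leak channel Kcnk1 led, followed by the auxiliary subunit Kcne3, the mechanically gated leak channel Kcnk2, the voltage-gated Kcna6 and Kcnh2, and then Kcnab2, Kcnmb4, Kcnc4, Kcnab3 and Kcnj10. Their levels per kb were 19.6 ± 5.3 for Kcnk1, 15.4 ± 3.59 for Kcne3, 13.6 ± 3.96 for Kcnk2 and 10.9 ± 2.81 for Kcna6, down to 5.28 ± 1.13 for Kcnj10. All 9 neighbouring pairs in this order overlapped between replicates, so the order is not fixed by these data. The 10 members held 49.7% of the summed level per kb, which was 211 over all members against 571 in untreated hair cells.

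**Figure D1:**
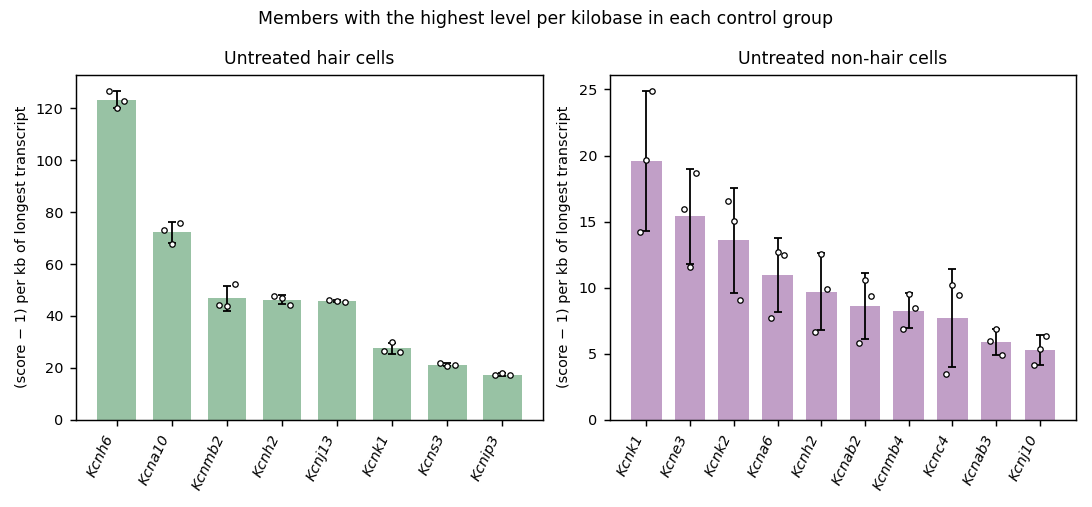
Level per kb of transcript (score minus 1, per kb, linear axis from 0) of leading members in untreated hair cells (left, 8 of the 10 highest) and untreated non-hair cells (right, the 10 highest). Bars are means, error bars SD and open circles the 3 replicates. Kcnh6 at 123 and Kcna10 at 72.3 stand above the others on the left, and the replicates of all neighbours on the right overlap.

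The first comparison asked which channel genes set hair cells apart from the surrounding cells in the absence of drug. Of 78 members tested, 60 differed between untreated hair cells and untreated non-hair cells (limma, adjusted p under 0.05), which is 76.9%, beside 74.1% of all genes tested. Higher in hair cells were 20 members, or 25.6% beside 31.9% of all genes, and lower were 40 members, or 51.3% beside 42.2%. The median log2 difference of members was -0.52 beside -0.12 for all genes, both as deposited. Under TMM normalization the median of all genes was -0.01, and that of members is not given here. In 65 members, or 83.3% beside 79.2% of all genes, the replicates of both populations did not overlap. In these bulk samples fewer cells of a type and less RNA per cell cannot be told apart.

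Among voltage-gated pore subunits 8 were higher and 16 lower in hair cells, among silent subunits 2 and 3, among calcium- or sodium-activated channels 2 and 4, among inward rectifiers 4 and 5, among two-pore-domain channels 2 and 5, and among auxiliary subunits 2 and 7. Kcna10 had scores of 141, 131 and 146 in untreated hair cells and of 1.12 in each non-hair cell replicate, where 3 reads were behind each value. The log2 difference was 6.96 ± 0.16 (adjusted p = 1.67e-11; all log2 differences are given ± SE), which was the largest of all members. Its chromosome 3 neighbours behaved otherwise, since Kcna2 had 12.1, 19.1 and 18.4 in hair cells and 27.9, 45.4 and 45.9 in non-hair cells (log2 difference -1.26 ± 0.26, adjusted p = 0.00101), and Kcna3 lay between 2.02 and 2.41 in all untreated replicates.

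The 8 Kcnh genes, which encode channels of the Eag, Erg and Elk types, split into 4 that were higher and 4 that were lower in hair cells. Kcnh6 had 428, 406 and 415 in hair cells and 9.35, 14.6 and 17.7 in non-hair cells (log2 difference 4.95 ± 0.31). Kcnh7 had 45.5, 39.6 and 44.1 against 1.37, 2.39 and 2.31 (4.45 ± 0.22). Kcnh8 differed by 2.79 ± 0.25 and Kcnh2 by 2.27 ± 0.22, while Kcnh1, Kcnh3, Kcnh4 and Kcnh5 were lower in hair cells, by -0.99 to -0.44. Of these, Kcnh4 and Kcnh3 lost the call in 9 and 5 of the alternative fits. Kcnh4 was at -0.57 under TMM normalization (limma, adjusted p = 0.0558) and at -0.32 without non-hair cell control replicate 2 (adjusted p = 0.193).

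Of the silent subunits, which are known to assemble with other voltage-gated subunits, Kcns3 had 65.5, 61.3 and 63.4 in hair cells and 6.08, 5.16 and 5.56 in non-hair cells (adjusted p = 5.06e-10), and Kcnf1 differed by 3.20 ± 0.18. On the other side stood the voltage-gated Kcnc4 (-2.49 ± 0.52), Kcnd3 (-2.34 ± 0.26), Kcna1 (-2.18 ± 0.32) and Kcna6 (-1.80 ± 0.22), all genes known from neurons.

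Of the calcium-activated channels, Kcnn2, the SK channel that acts with the cholinergic receptor at efferent synapses on hair cells, had 59.0, 51.5 and 60.8 in hair cells and 4.77, 4.37 and 3.94 in non-hair cells (3.71 ± 0.16). Kcnma1, the BK pore, was not called, with 12.1, 11.4 and 14.8 against 5.55, 10.2 and 9.90 (0.62 ± 0.29, 95% interval -0.03 to 1.26, adjusted p = 0.077). Its partners went separate ways. Kcnmb2 had 130, 129 and 154 against 2.28, 4.09 and 3.59 (5.41 ± 0.25), whereas Kcnmb4 was lower in hair cells (-0.92 ± 0.15).

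Among inward rectifiers, Kcnj13, known from the retinal pigment epithelium, had 59.5, 59.2 and 58.8 in hair cells and 1.91, 1.36 and 1.77 in non-hair cells (5.15 ± 0.16). Kcnj11, the pore of the ATP-sensitive channel of pancreatic beta cells, was higher in hair cells (1.68 ± 0.26), as was its sulfonylurea receptor partner Abcc8 (1.65 ± 0.39). Kcnj8, the pore of the vascular ATP-sensitive channel, had 1.43, 1.56 and 1.28 in hair cells and 15.8, 10.9 and 7.72 in non-hair cells (-2.95 ± 0.23), and its partner Abcc9 was lower as well (-3.02 ± 0.13). Kcnj10 (0.24 ± 0.24) and Kcnj16 (0.48 ± 0.38), which supporting cells and glia use to take up potassium, were not called.

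The lowest member relative to non-hair cells was Kcnk2, with 1.52, 2.15 and 1.65 in hair cells and 60.3, 54.8 and 33.5 in non-hair cells (-4.77 ± 0.21, adjusted p = 3.08e-09). Above a score of 1, its level in untreated hair cells was 1.60% of that in non-hair cells, where the mesenchyme list stood at 4.59%. Kcne3 (-3.00 ± 0.39) and Kcne4 (-2.24 ± 0.16) were also lower in hair cells. Kcnq1 (-1.75 ± 0.26) and Kcne1 (-1.21 ± 0.23), which together form the channel that secretes potassium into the endolymph, were lower there too. Their scores reached at most 12.2 and 4.06 over all groups. Other members known from the cochlea that were lower in hair cells were Kcnj2 (-1.13 ± 0.19), Kcnq5 (-1.21 ± 0.20), Kcnip1 (-1.32 ± 0.10) and Kcnt2 (-1.09 ± 0.12). Mean scores in untreated hair cells were 1.85 for Kcnq5, 1.13 for Kcnip1 and 1.10 for Kcnt2. So close to 1, the score without reads, log2 differences understate the ratio of reads. Above a score of 1, hair cells had 25.2% of the non-hair cell level for Kcnq5, 7.17% for Kcnip1, 7.63% for Kcnt2 and 8.07% for Kcne1. The auxiliary subunit Kcnab1 (0.59 ± 0.28) and the leak channel Kcnk1 (0.52 ± 0.25) were not called.

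**Figure D2:**
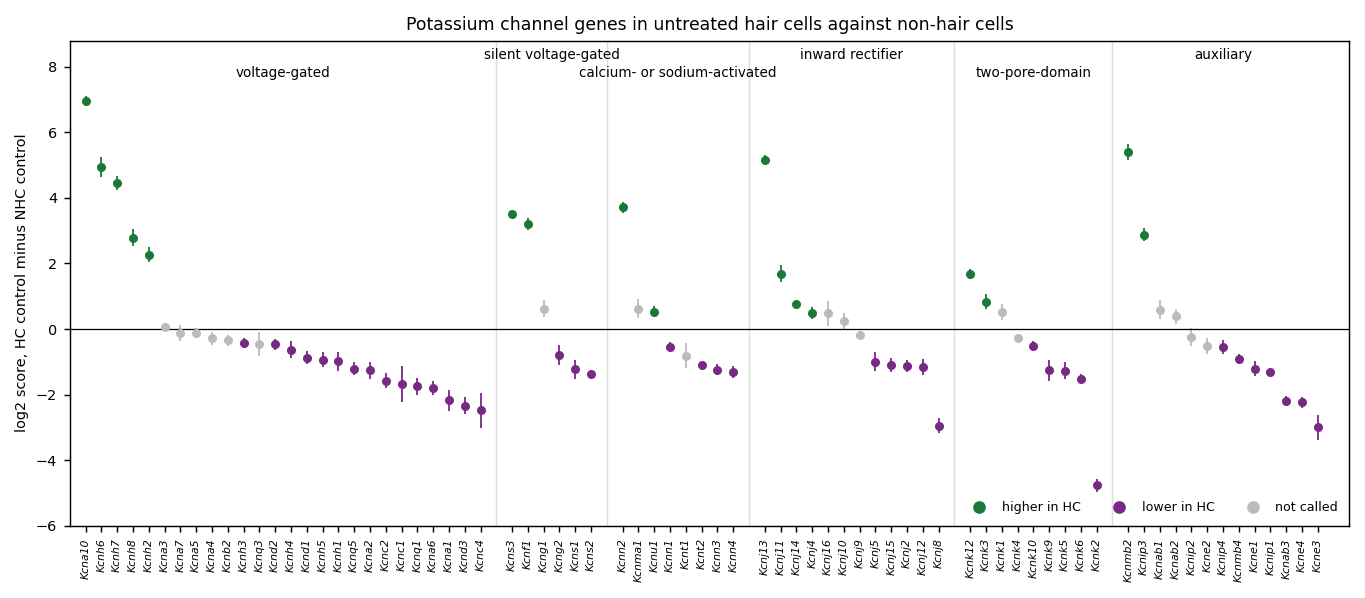
Log2 difference in score between untreated hair cells and untreated non-hair cells for 74 of the 78 tested members, by family (vertical axis; bars, SE; green, higher in hair cells; purple, lower; grey, not called). The members that were higher reach 6.96, for Kcna10, and those that were lower reach -4.77, for Kcnk2.

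Replicate numbers may pair the samples here, since same-numbered hair cell and non-hair cell controls deviated together, but the labels do not say so. With the replicate as a block, Kcng1, Kcnb2 and Kcna4 were called as well, with adjusted p = 0.00922, 0.0303 and 0.0364 in limma. Without non-hair cell control replicate 2 Kcnc1 was not called (-1.39, adjusted p = 0.0630), nor was Kcnd2, a channel of A-type current (-0.29, adjusted p = 0.0636). Without hair cell control replicate 1 Kcnc1 was not called either (adjusted p = 0.0598), nor was Kcnd2 without replicate 2 (adjusted p = 0.0563).

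The second comparison asked how channel genes of hair cells changed within 3 h of gentamicin. Of 78 members, 13 were called (adjusted p under 0.05), or 16.7% beside 33.2% of all genes tested. Among the 46 members with at least 1000 reads the share was 21.7%, beside 37.8% of all such genes. Only 3 members rose, or 3.85% beside 14.8%, and 10 fell, or 12.8% beside 18.4%. With scores rescaled by total reads, 4 members rose and 9 fell, while among all genes the split went from 14.8% higher and 18.4% lower to 19.8% higher and 12.2% lower. The median log2 change of members was -0.25, beside -0.09 for all genes. All 3 treated replicates lay above all 3 controls in 10 members, or 12.8% beside 21.7%, and below them in 33, or 42.3% beside 33.1%. By the criteria of the study, which use an unadjusted p, 11 members were called beside 27.5% of all genes.

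Kcnn2 rose from 59.0, 51.5 and 60.8 to 78.3, 111 and 73.8, with every treated replicate above every control (log2 change 0.60 ± 0.16, adjusted p = 0.0142). Without gentamicin replicate 2, its highest, the change was 0.42 and missed the threshold (adjusted p = 0.0542). Kcna4, a rapidly inactivating voltage-gated channel, rose from 3.74, 4.46 and 4.96 to 5.86, 7.95 and 9.27 (0.79 ± 0.21, adjusted p = 0.0130). Kcnj14, an inward rectifier, rose from 2.35, 2.24 and 2.52 to 3.84, 3.85 and 3.39 (0.64 ± 0.11, adjusted p = 0.00129), a change at a low level.

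Among the members that fell were several that were higher in non-hair cells or low in both populations, and both comparisons share the untreated hair cell replicates. Kcna6 went from 17.0, 22.7 and 15.7 to 8.30, 9.83 and 11.9 (-0.88 ± 0.22, adjusted p = 0.0110). Kcnn3, an SK channel, went from 4.26, 4.85 and 4.64 to 2.48, 1.80 and 2.75 (-0.99 ± 0.17, adjusted p = 0.00133). Kcna2 went from 12.1, 19.1 and 18.4 to 8.47, 6.77 and 12.4, with 1 treated replicate above the lowest control (-0.86 ± 0.26, adjusted p = 0.0272), and 4 of the 6 fits without 1 hair cell replicate did not call it. At lower levels Kcnq1 (-0.77 ± 0.26), Kcnj4 (-0.73 ± 0.19), Kcnk2 (-0.65 ± 0.21), Kcnab3 (-0.63 ± 0.16) and Kcnh3 (-0.58 ± 0.15) fell, and none of these 5 exceeded a score of 4.59 in hair cells. The adjusted p of Kcnq1 was 0.0404 and that of Kcnk2 0.0350, and both lost the call in most fits without 1 hair cell replicate. Kcnn3 and Kcnj14 were called with each replicate left out in turn. Reads of Kcnq1 may also include its antisense transcript Kcnq1ot1.

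**Figure D3:**
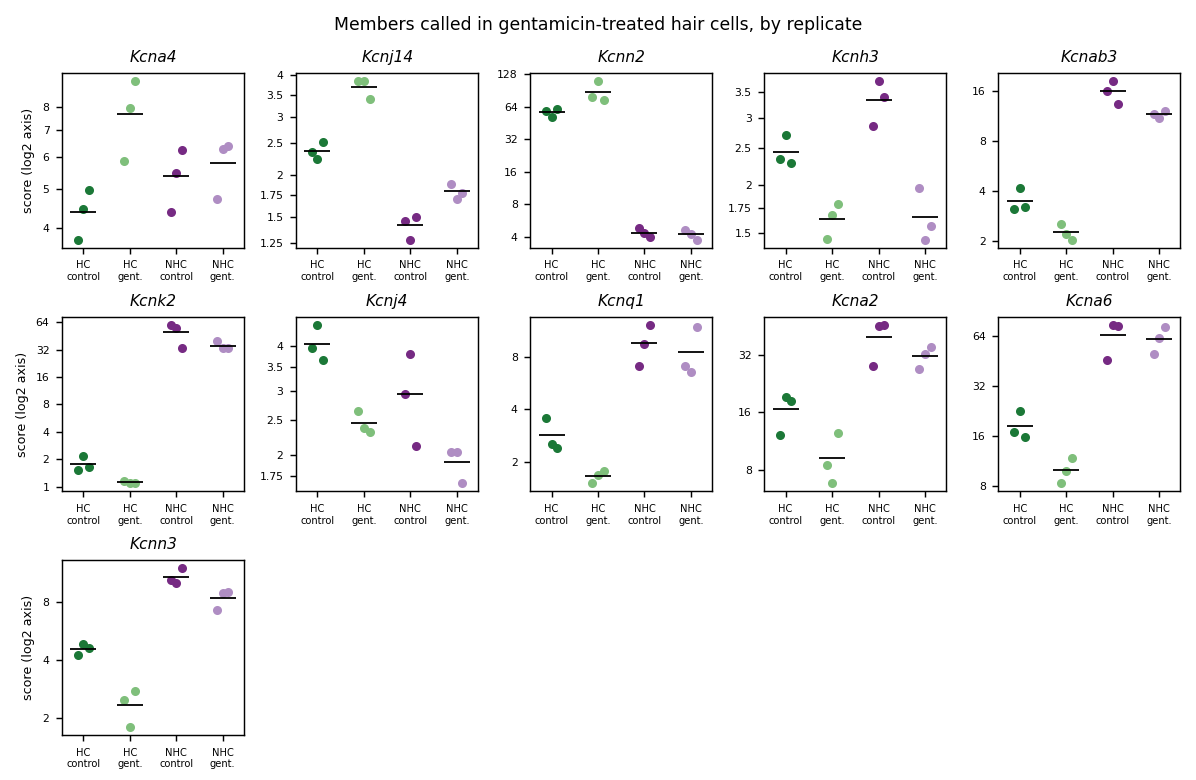
Scores by replicate (log2 axis, 1 panel for each gene) of 11 of the 13 members called in gentamicin-treated hair cells, in all 4 groups (HC, hair cells; NHC, non-hair cells; gent., gentamicin). Points are replicates and lines are means. In the panel of Kcnn2 the hair cell groups are separate and both lie above the non-hair cells, and in those of Kcna6, Kcnab3 and Kcnk2 hair cells lie below non-hair cells.

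Markers of other cells were also lower in the treated hair cell libraries. The mesenchyme sum was 178, 445 and 187 in untreated hair cells and 92.7, 122 and 144 after gentamicin. The pericyte sum went from 34.4–59.8 to 15.5–20.9. The supporting cell sum went from 2339–2832 to 996–1915, with 4 of 10 of its genes called lower. In untreated hair cells, however, the supporting cell sum was 118.8% of that in untreated non-hair cells, with 2 of its genes called higher there and 2 lower. This list thus did not separate the sorted populations from each other here. Supporting cells were not sorted apart, and their share in either population was not tested. The glia sum went from 269–327 to 131–232 and the endothelial sum from 14.5–26.8 to 7.83–13.3, whereas the immune cell sum went from 4.61–5.30 to 15.0–21.5, where Cd68, a lysosomal protein of macrophages, was the 1 of 6 genes called (mean 2.43 to 14.1) and the pan-leukocyte gene Ptprc had means of 1.35 and 1.34. Of the 10 members that fell, 8 were highest among the 3 controls in control replicate 2, the library with the highest mesenchyme sum, as were 45 of 78 tested members and 36.9% of all genes. Without that replicate 4 members were called, 2 in each direction.

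To measure how far RNA of non-hair cells could bear on these calls, each hair cell replicate was also tested after taking off a share of the non-hair cell mean, set by its mesenchyme sum at 3.03 to 7.57% in controls and 1.30 to 2.02% after gentamicin. Of the 13 members 11 were then called and no other member was, which is 14.1% beside 29.1% of all genes. Kcnn3 (-0.92) and Kcna6 (-0.80) were among them, whereas Kcnk2 was left without reads in both groups and Kcnq1 was not called (-0.64, adjusted p = 0.104). The mean is that of the whole mixture, so RNA of neurons, glia and supporting cells was taken off in the same proportion. Shares set by the markers of those cells were not tested.

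The number of calls also depended on the non-hair cell replicates, which were more variable and entered the common estimate of the spread. When the 2 hair cell groups were fitted alone, 32 members were called, 8 higher and 24 lower, or 41.0% beside 40.5% of all genes. Kcnh6 was then called higher, with scores of 428, 406 and 415 in controls and 575, 650 and 587 after gentamicin (0.54 ± 0.07, adjusted p = 0.00201). Kcns3 (0.33 ± 0.07), Kcnip3 (0.38 ± 0.11), Kcnk1 (0.38 ± 0.11) and Kcnh2 (0.24 ± 0.07) were higher as well. Also called lower in this fit were Kcnc1 (-1.46 ± 0.28), Kcnc4 (-1.19 ± 0.33) and Kcnq3 (-0.98 ± 0.21). With all 4 groups in the fit the adjusted p of these 3 lay between 0.0534 and 0.102.

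Several channel genes, among them Kcna10 and Kcnma1, which are known from hair cells, were not called in either fit. Kcna10 had 141, 131 and 146 without drug and 127, 161 and 108 with it (-0.10 ± 0.16). Kcnma1 stood at 10.9, 12.4 and 10.9 with gentamicin (-0.16 ± 0.29). Kcnh8 was at 35.9, 37.6 and 37.6 (-0.01 ± 0.25).

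In non-hair cells gentamicin left 1 of 78 members called, or 1.28% beside 0.342% of all genes. The gene was Kcnh3, a voltage-gated channel at low level, which went from 2.86, 3.73 and 3.39 to 1.97, 1.44 and 1.56 (-1.01 ± 0.15, adjusted p = 0.0301). With the replicate as a block it was not called (adjusted p = 0.0622), nor in the non-hair cell groups fitted alone (adjusted p = 0.391). At an unadjusted p under 0.05 there were 26 members, or 33.3% beside 17.1%, and the median log2 change was -0.22 beside -0.01. The study's own criteria ask for p below 0.01 before adjustment and a change of more than 1.2-fold. By these, 8 members were called, or 10.3% beside 5.44%. All 3 treated replicates lay below all 3 controls in 14 members, or 17.9% beside 7.68%.

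Of these 8, Kcnj12 (-1.17 ± 0.25), Kcnh3, Kcnip2 (-0.93 ± 0.27), Kcnab2 (-0.88 ± 0.23), Kcne4 (-0.73 ± 0.16) and Kcnj4 (-0.59 ± 0.19) were lower, and Kcns2 (0.41 ± 0.11) and Kcnj14 (0.34 ± 0.11) higher. Kcnj12, an inward rectifier, went from 3.57, 4.90 and 6.97 to 2.42, 1.58 and 2.79, and Kcnab2, an auxiliary subunit of voltage-gated channels, from 23.8, 42.6 and 37.9 to 19.5, 13.5 and 23.4. In both genes every treated replicate lay below every control.

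The spread among non-hair cell replicates was wide for Kcnc1 and Kcnc4, both known from neurons. Kcnc1, a fast-gating channel of neurons, had 17.0, 45.6 and 35.7 without drug and 13.7, 4.96 and 27.2 with it. Kcnc4, another fast-gating channel, had 13.6, 38.4 and 35.6 without and 14.1, 6.34 and 24.4 with it. In both genes the groups overlapped, and replicate 1 was lowest among controls and replicate 2 among treated samples. The summed score of 10 spiral ganglion neuron markers was 635, 1639 and 1470 in the controls and 623, 307 and 1136 in the treated replicates, so the same replicates were lowest. Of the 78 tested members 41 were lowest of all 6 non-hair cell replicates in treated replicate 2, as were 27.4% of all genes.

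In hair cells Kcnc1 and Kcnc4 were highest in control replicate 2, with 15.2 and 8.32. The other controls had 6.61 and 8.26 for Kcnc1 and 3.00 and 4.23 for Kcnc4. After gentamicin Kcnc1 lay between 3.20 and 3.58 and Kcnc4 between 1.92 and 2.32. The summed neuron list was 1105 to 1305 in hair cells without and 1041 to 1198 with drug, but this sum was carried by the neurofilament genes Nefm (mean 699 without and 709 with drug) and Nefl (338 and 260), which were not called between the populations. Without drug 6 of the 10 genes were higher in non-hair cells and 1 in hair cells. Of those 6, 5 had every treated hair cell replicate below every control, namely Elavl3 (9.42–21.4 to 4.58–5.03), Stmn2 (16.4–28.8 to 6.94–11.0), Tubb3 (15.9–30.6 to 11.1–14.2), Prph (3.17–7.07 to 1.59–2.75) and Ntrk3 (5.34–8.61 to 2.39–3.47), and Prph and Ntrk3 were called lower. These 5 markers were lower in the same libraries as Kcnc1 and Kcnc4. Other genes of the list did not all fall. Isl2 went from 43.5–47.6 to 55.3–70.3, while Snap25 (49.3–58.8 to 44.6–58.5) and Scn9a (1.83–3.85 to 1.58–2.06) overlapped between the hair cell groups. The part of neuronal RNA in these values was not tested.

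**Figure D4:**
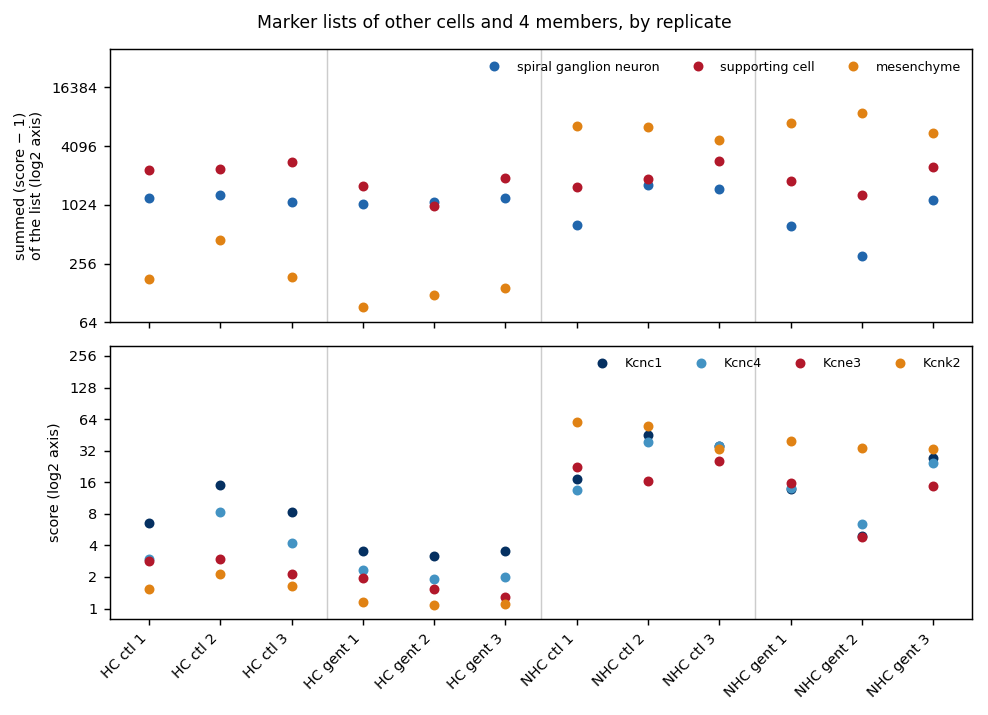
Summed score above 1 of 3 marker lists (top) and scores of 4 members (bottom) in each replicate, both on log2 axes; HC, hair cells; NHC, non-hair cells; ctl, control; gent, gentamicin. In non-hair cells Kcnc1 and Kcnc4 are lowest where the neuron list is lowest, at 307 in treated replicate 2, and in hair cells the mesenchyme list is highest, at 445, in control replicate 2.

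The last comparison asked whether the response to gentamicin differed between the populations, by the interaction of cell population and drug. No member was called in limma, 0 of 78 beside 13.4% of all genes, and 14 members had an unadjusted p under 0.05, or 17.9% beside 30.3%. For Kcnn2 the difference was 0.65 (95% interval 0.16 to 1.14, adjusted p = 0.0762), with 0.60 in hair cells and -0.05 in non-hair cells.

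Kcna4 differed by 0.69 (0.05 to 1.32, adjusted p = 0.139), Kcnj2, an inward rectifier, by -0.78 (-1.36 to -0.20, adjusted p = 0.0718) and Kcna6 by -0.83 (-1.52 to -0.14, adjusted p = 0.101). With the replicate as a block these 3 were called, at adjusted p = 0.0219, 0.0224 and 0.0413. Kcnh6 differed by 0.72 ± 0.44. The standard error of this contrast had a median of 0.31 over members, so small differences were not detectable here.

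**Figure D5:**
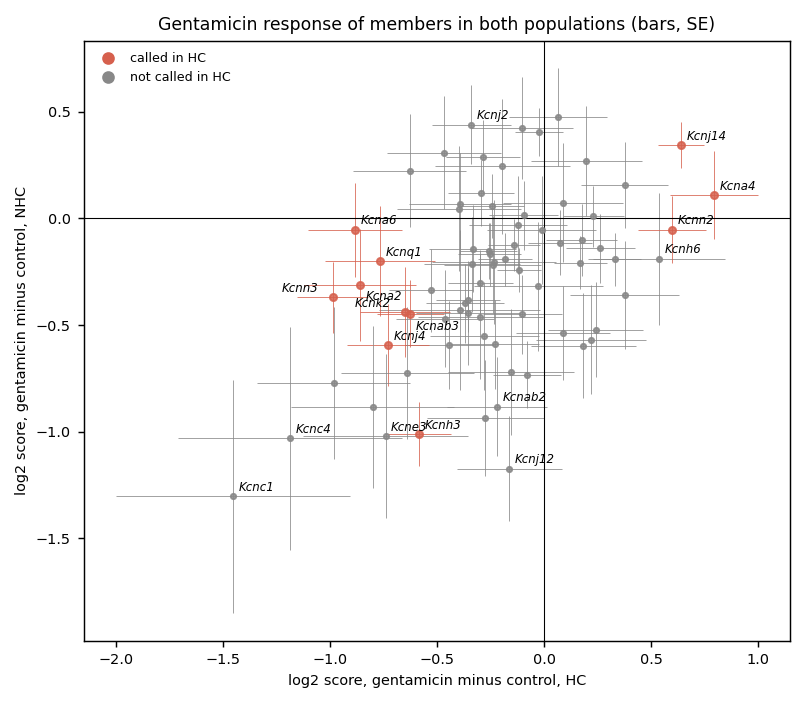
Log2 change in score with gentamicin in hair cells (horizontal) and in non-hair cells (vertical) for 74 of the 78 tested members; bars, SE; red, called in hair cells. Kcna4, Kcnj14 and Kcnn2 lie at the right between 0.60 and 0.79, and Kcnc1 and Kcnc4, which were not called, lie at the lower left with the widest bars.

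Potassium handling outside these families was read from a list of 33 genes, of which 29 were tested. Without drug 13 were higher and 13 lower in hair cells, each 44.8%, beside 31.9% and 42.2% of all genes. With gentamicin in hair cells 0 rose, beside 14.8% of all genes, and 7 fell, or 24.1% beside 18.4%. In non-hair cells 0 were called in either direction, beside 0.342% of all genes. Among the 7 were the sulfonylurea receptor Abcc9 (-0.84 ± 0.13), the BK partner Lrrc26 (-0.62), the potassium chloride cotransporter Slc12a5 (-0.76), and the lysosomal channel Tmem175 (-0.39). For Abcc9 and Tmem175 the response was lower in hair cells than in non-hair cells by the interaction test.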

How the data were processed

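Whole-transcript mRNA of sorted cells was sequenced as 50 bp single-end reads, with 3 replicates for each of 4 groups. The authors trimmed reads at a quality score of 25, aligned them to mm10 with TopHat 2 in PartekFlow and deposited 1 score per gene in every replicate. RPKM is the unit named in the methods. The deposited score, however, was not divided by length: it holds reads scaled per replicate with 1 added, and 83.3–84.5% of values of up to 20 reads were whole within 0.1 read. This share was too low for a test of counts, so limma 3.58.1 (R 4.3.3) was run on log2 scores, using a mean-variance trend and a single model for all 4 groups. Genes with at least 100 recovered reads were tested and p-values adjusted by Benjamini-Hochberg over all of them. At 22400402 to 28151943 reads on genes per replicate, genes near the minimum carry few reads, and the number of replicates limits precision. The lane of each library was not given in the sources used here, and p-values measure only the spread between these replicates.

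Groups came from the labels and replicate numbers from the column headers. Control replicates of both populations with the same number deviated together (correlations 0.216, 0.316 and 0.200), and those with different numbers had correlations from -0.27 to -0.0548. In the other comparisons same-numbered replicates had correlations from -0.232 to 0.683. Untreated non-hair cell replicate 1 and treated replicate 2, of different number, reached 0.572. Whether same-numbered samples share a dissection is not stated in the sources used here. Values of some members and of some other potassium genes are not reported here, though counts include them. Members and lists were chosen with earlier results of these data known. Named by rule were members known in the cochlea, up to 6 called members for each comparison and direction with a mean score of at least 5 and no overlap, and the 10 with the highest level per kb in each control. Other named members, among them Kcnn3, Kcna2, Kcnj14, Kcnj4, Kcnh3, Kcnj12, Kcnh1, Kcnh4, Kcnh5, Kcnh8, Kcnf1, Kcnj11, Kcna1 and Kcne4, were chosen after their values were seen. Alternatives were TMM and total reads scaling, offsets of 0.1 and 5, a minimum of 1000 reads or none, the replicate block, the 2 compared groups alone, the study's criteria and each replicate left out. Subtraction of a share of the non-hair cell mean, set by mesenchyme markers, was added after the data were seen. Scripts were first checked on simulated data. Tables were handled with pandas 2.3.3 in Python 3.11.15, and figures drawn with matplotlib 3.10.9.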

Additional observations from a re-analysis of the deposited data

How the results depend on the processing

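Of 57 called values of single members, 41 kept their call in each alternative fit that held the member, and none changed direction. The study's criteria were not part of this count, and members below 1000 reads were absent from the fit with that minimum. Between the untreated populations 60 members were called, 36 with a minimum of 1000 reads, and 52 to 61 with 1 replicate left out. For gentamicin in hair cells the 13 calls became 27 with 0.1 as the offset and 32 with the 2 groups alone, and lay between 4 and 10 with 1 replicate left out. The lowest, 4, was without hair cell control replicate 2, where Kcna6 (adjusted p = 0.0510), Kcnab3 (0.0513), Kcnh3 (0.0553), Kcnj4 (0.0588) and Kcnn2 (0.0630) were not called, and there were 8 without gentamicin replicate 2. Between the populations Kcnh4, Kcnj4 and Kcnh3 lost their calls in 9, 6 and 5 alternatives. Kcna4 lost its call in treated hair cells without control replicate 1 (adjusted p = 0.0529). For gentamicin in non-hair cells the 1 call became 0 with a minimum of 1000 reads, with the replicate block and with the 2 groups alone, 8 by the study's criteria, and 0 to 4 with 1 replicate left out, 4 being without gentamicin replicate 3. For the interaction the count of 0 became 2 with total reads scaling, 2 with an offset of 0.1, 3 with an offset of 5, 1 with no minimum, 3 with the replicate block, 1 after subtraction of the mesenchyme share, 1 by the study's criteria, and 0 to 6 with 1 replicate left out, 6 being without non-hair cell gentamicin replicate 3 and 4 without control replicate 1. The subtraction was chosen after seeing the data. A minimum of 1000 reads leaves 46 members, and the 2-group fits leave out the spread of the other population; for other settings the cause was not tested. The block changed no call of a member beyond those given, Kcnq3 in treated hair cells (adjusted p = 0.0362), and the counts above. Low depth limits members of few reads.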
